A study of Mus musculus with 13 samples.

Results

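The 40 genes described here encode factors that make ribosomes or reside in the nucleolus. They were taken by symbol from the table of estimated counts, which lists 55774 gene entries for 13 libraries, and all 40 were found. All 40 also passed the filter on low counts that left 15781 genes for testing. They were sorted by role into 3 subunits of RNA polymerase I, 3 core proteins of box C/D small nucleolar ribonucleoproteins (snoRNPs), 3 of box H/ACA snoRNPs, 8 members of the small subunit processome, 4 late 40S assembly factors, 13 factors of 60S assembly and 6 nucleolar proteins with several roles.

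The RNA came from splenic CD4+ T cells of female NOD mice that carry the BDC2.5 T cell receptor transgenes, which direct the cells to a beta-cell antigen. The cells were naive at the start, and all 13 libraries carry these transgenes, TcraBDC2.5 and TcrbBDC2.5. There were 4 libraries of T cells alone, 4 after 96 hours with islet macrophages of NOD donors injected with buffer (control-macrophage co-culture) and 5 after 96 hours with islet macrophages of donors given 1 low dose of streptozotocin (STZ-macrophage co-culture). Streptozotocin is a toxin that enters and kills beta cells. Donors were injected at 4 weeks of age and their islets were taken 10 days later, at 5.5 weeks. Macrophages were enriched on magnetic beads, so other islet cells may have entered the cultures, and live T cells positive for CD45, Thy1.2 and CD4 were then collected by flow sorting. No label tells if the cells alone were kept in culture, so comparisons with them cover culture as well as macrophages.

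Ribosomes are built in the nucleolus, where RNA polymerase I transcribes the ribosomal RNA precursor, snoRNPs guide its methylation and pseudouridylation, and assembly factors fold and cut it into the small (40S) and large (60S) subunits. Resting T cells keep this work low, and an activated T cell that enlarges and divides raises it. The transcription factor MYC, paired with MAX, binds E-box sequences at many of these genes and is a known driver of their expression.

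Library totals ran from 17.3 to 61.3 M estimated counts. Values for single genes are given as CPM, counts per M of the library's total after TMM scaling. The labels assign each library to a batch named day 1 or day 2, without saying what was done on that day. Day 1 held all 4 libraries of cells alone, 3 control-macrophage and 2 STZ-macrophage co-cultures, and day 2 held control-macrophage replicate 3 and STZ-macrophage replicates 2, 3 and 4. The labels call the replicates biological without naming animals or cultures, so p-values measure the spread between these samples. All 8 T cell markers were present in each group. Among 20 macrophage markers, the mean of 17 stayed below 1 CPM without macrophages, of 12 in the control-macrophage and of 6 in the STZ-macrophage co-culture, and their summed level was 225 to 374, 470 to 571 and 447 to 693 CPM. Ctsb made up most of that sum in every group. Summed CD8 T cell and NK cell markers lay at 71.1 to 148, 134 to 813 and 240 to 542 CPM. Summed islet endocrine markers reached 164 and 143 CPM in STZ-macrophage replicates 2 and 4 and at most 3.33 CPM elsewhere. The part of these other cells in the results below was not tested.

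In both co-cultures, transcripts of a subset of the ribosome biogenesis genes rose above the cells alone. With control macrophages the called genes were 4 of 13 factors of 60S assembly, 3 of 4 late 40S factors, 3 of 6 nucleolar proteins with several roles and the snoRNP proteins Nop58, Nhp2 and Dkc1. With STZ macrophages they were 3, 3 and 2 of these roles, Nop58, Nhp2 and the processome gene Noc4l. No subunit of RNA polymerase I was called. In the control-macrophage co-culture 13 of 40 genes rose and 2 fell (edgeR, adjusted p below 0.05), beside 23.1% of all tested genes that rose and 22% that fell (45% in either direction). In the STZ-macrophage co-culture 11 rose and 2 fell, beside 20.8% and 22.3% of all genes (43.1% in either direction). The share of members that rose was thus near or moderately above the background, and the share that fell was lower than it. The median log2 fold change of the 40 genes was 0.46 with control and 0.56 with STZ macrophages, against -0.13 and -0.05 over all tested genes. Both comparisons use the same 4 libraries of cells alone. With library totals in place of TMM the counts were 8 higher and 4 lower with control macrophages, beside 18.5% and 29.4% of all genes, and 10 higher and 4 lower with STZ macrophages, beside 18.7% and 24.7%. Without control-macrophage replicate 4 the first count was 8, beside 19.6%. In bulk samples such as these, fewer cells of a type and less RNA per cell cannot be told apart.

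**Figure D1:**
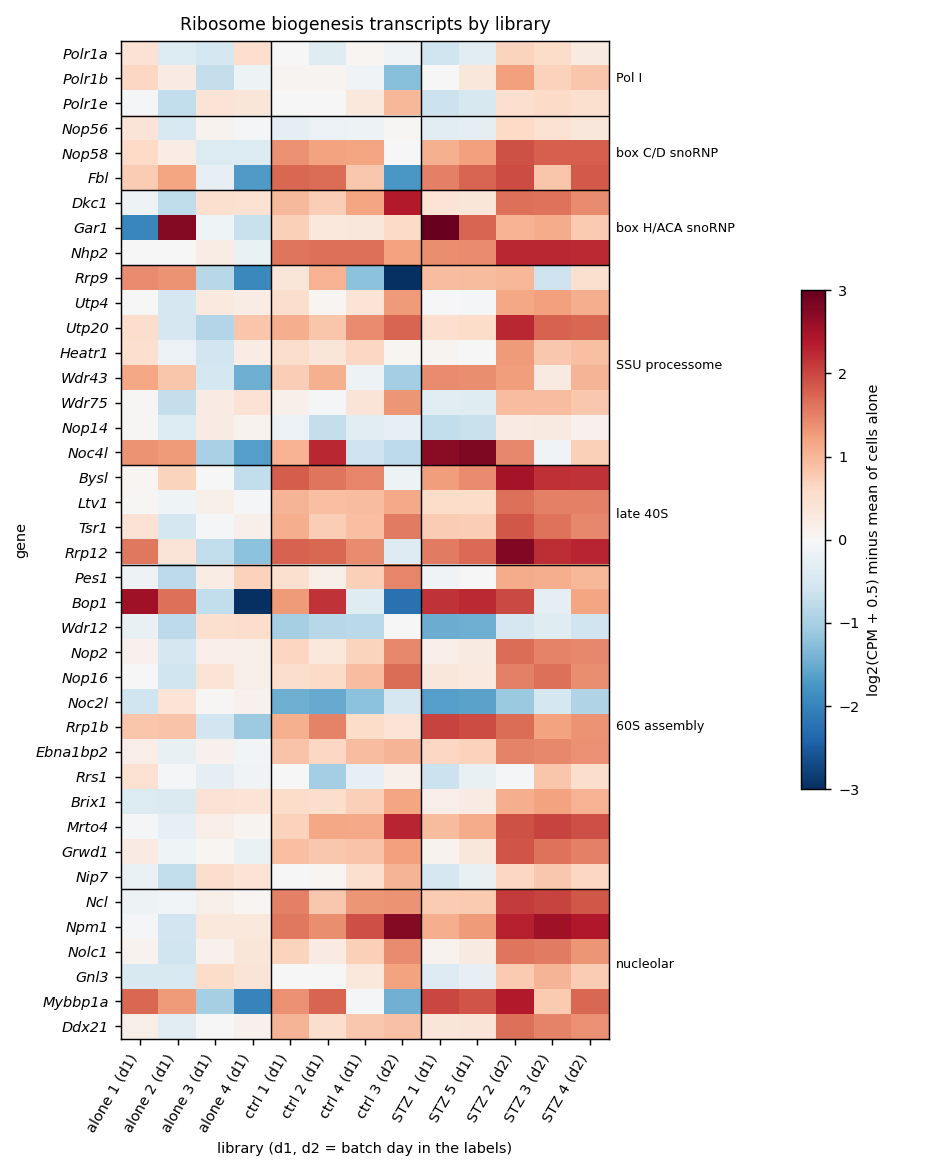
Heat map of the 40 genes (rows, grouped by role) in the 13 libraries (columns, d1 and d2 being the batch day), coloured by log2(CPM + 0.5) minus the mean of the 4 libraries of cells alone, with the colour scale ending at 3 in either direction. Npm1 and Nhp2 are red in all 9 co-cultures, Noc2l is blue in all 9, and Bop1, Rrp9 and Mybbp1a range from red to blue within a group.

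As a share of all counts, the 40 genes took 0.423 to 0.489% of the cells-alone libraries and 0.548 to 0.620% of the control-macrophage libraries. In the STZ-macrophage co-culture the share was 0.531 and 0.539% in the libraries of day 1 and 0.892 to 0.945% in those of day 2. All 9 co-cultures lay above all 4 libraries of cells alone, and the 3 STZ-macrophage libraries of day 2 above the other 10. Ncl had the highest CPM of the 40 in every group and weighs most in this sum.

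**Figure D2:**
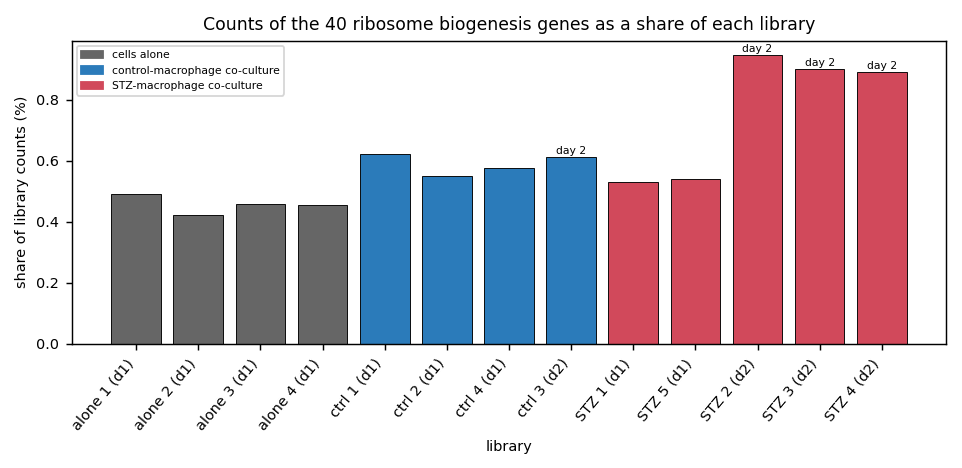
Bars give the counts of the 40 ribosome biogenesis genes as a percent of each library's total, in grey for cells alone, blue for control-macrophage and red for STZ-macrophage co-culture. The 3 STZ-macrophage bars of day 2 stand at 0.892 to 0.945%, above every other bar, and the control-macrophage bar of day 2 stands at 0.612%, within the range of its own group.

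Among the nucleolar proteins with several roles, Npm1, Ncl and Ddx21 rose in the control-macrophage co-culture and Npm1 and Ncl in the STZ-macrophage co-culture. Npm1 encodes nucleophosmin, a histone and ribosome chaperone of the outer nucleolus, and lies at chr11:33152287-33163206 (GRCm38). It measured 131, 92.4, 169 and 171 CPM in the cells alone. With control macrophages it measured 409.9, 359 and 521 CPM on day 1 and 926 on day 2, and with STZ macrophages 294 and 332 on day 1 and 686, 799 and 720.1 on day 2. Every co-culture exceeded every library of cells alone. The log2 fold change was 1.59 ± 0.21 (SE) with control and 1.18 ± 0.23 with STZ macrophages (edgeR adjusted p = 6.48e-05 and 0.00108), or 3.01-fold and 2.26-fold. Npm1 has processed pseudogene copies in the mouse genome, between which reads may have been split.

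Ncl encodes nucleolin, an abundant RNA-binding protein of the nucleolus, and lies at chr1:86344719-86359400 with 3 annotated snoRNA genes inside it. Its CPM was 571, 606, 716 and 667 in the cells alone, 1826, 1125 and 1586 (day 1) and 1636 (day 2) with control macrophages, and 1087 and 1098 (day 1) and 2713, 2591 and 2337 (day 2) with STZ macrophages. Co-cultures and cells alone did not overlap, and the day 2 libraries with STZ macrophages were the highest. The log2 fold change was 1.09 ± 0.22 and 1.02 ± 0.26 (edgeR adjusted p = 0.00162 and 0.00599). With STZ macrophages the call was lost with a replicate block (edgeR adjusted p = 0.066). Group means were 640.1 ± 64.4 (SD, n = 4), 1543 ± 297 (SD, n = 4) and 1965 ± 808 (SD, n = 5) CPM.

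Nolc1, a scaffold that binds snoRNPs and RNA polymerase I, measured 199, 123, 203 and 237 CPM in the cells alone, 295, 220.2 and 307 and 493 with control macrophages (day 1, then day 2) and 200.2 and 224 and 563, 547 and 468 with STZ macrophages. The lowest co-cultures lay inside the range of the cells alone, and its log2 fold changes of 0.45 ± 0.21 and 0.26 ± 0.24 were not called (edgeR adjusted p = 0.0968 and 0.399). Ddx21, an RNA helicase linked to ribosomal RNA transcription, rose with control macrophages by 0.65 (edgeR adjusted p = 0.0271, and 0.084 with a replicate block), and was not called without cells-alone replicate 2 or control-macrophage replicate 1 or 4 (edgeR adjusted p = 0.0527 to 0.0997). With STZ macrophages its 0.61 was not called (edgeR adjusted p = 0.0646). The GTP-binding protein gene Gnl3 (nucleostemin) and Mybbp1a were called in neither comparison, with log2 fold changes of 0.03 and 0.25 with control and -0.37 and 1.80 with STZ macrophages.

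**Figure D3:**
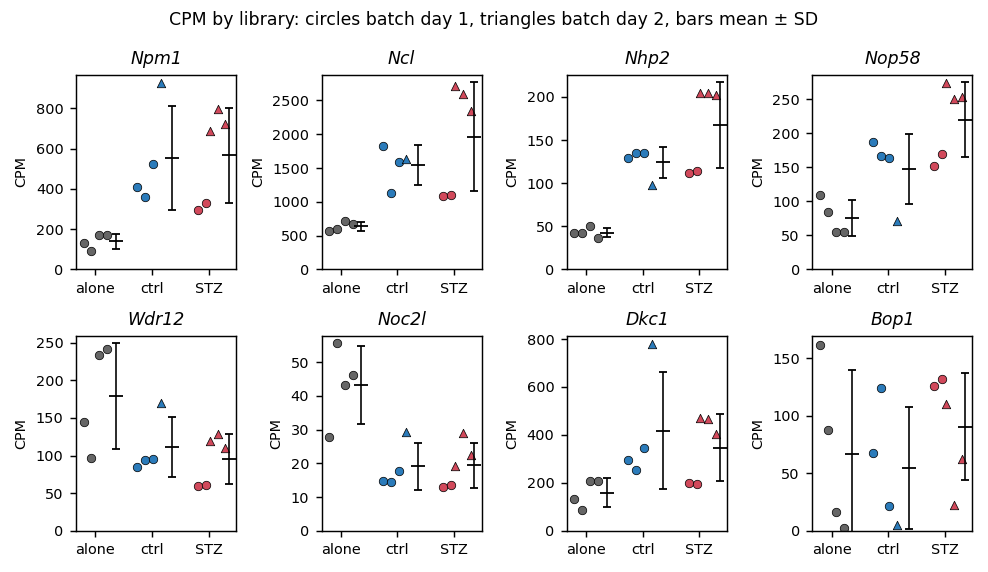
CPM of 8 genes in each library, with circles for batch day 1, triangles for day 2 and bars for the mean ± SD of 4, 4 and 5 libraries; each vertical axis starts at 0, where lower bars are cut off. Npm1, Ncl and Nhp2 show every co-culture above every library of cells alone, Noc2l lies mostly lower in co-culture, and Bop1 spans its whole range within the cells alone.

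The RNA polymerase I subunit genes Polr1a, Polr1b and Polr1e were called in neither co-culture. Polr1a encodes the largest catalytic subunit and measured 157, 86.8, 79.9 and 165 CPM in the cells alone, 116, 89.4 and 120.00 and 107 with control macrophages (day 1, then day 2) and 76.1 and 93.6 and 185, 169.8 and 139 with STZ macrophages. Polr1e, a subunit that joins the enzyme for initiation, measured 53.7, 33.1, 73 and 71.1 CPM in the cells alone, 54.7, 55.7 and 69 and 109.99 with control macrophages and 35 and 39.1 and 78.8, 82.3 and 77 with STZ macrophages. The 3 groups overlapped for both genes. The log2 fold change of Polr1a was -0.30 ± 0.28 with control and -0.30 ± 0.33 with STZ macrophages (edgeR adjusted p = 0.395 and 0.478). That of Polr1e was 0.02 ± 0.24 and -0.59 ± 0.26 (edgeR adjusted p = 0.956 and 0.0887).

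The calls differed among the core proteins of each snoRNP. Box C/D particles, which methylate ribosomal RNA, hold Nop56, Nop58 and the methyltransferase fibrillarin (Fbl). Nop58 measured 109.8, 84, 54.4 and 54.8 CPM in the cells alone, 188, 167 and 164 and 71.3 with control macrophages (day 1, then day 2) and 153 and 169.7 and 274, 251 and 253 with STZ macrophages. Only control-macrophage replicate 3, the library of day 2, lay within the range of the cells alone. Nop58 rose by 0.96 ± 0.33 and 1.53 ± 0.40 (edgeR adjusted p = 0.0334 and 0.00831). With STZ macrophages the call was lost with a replicate block and in the deposited adjusted log2 values. With control macrophages the call held in 9 of 18 alternatives. It was lost with a replicate block (edgeR adjusted p = 0.0707), GC correction (0.0914) and library totals (0.158), and without cells-alone replicate 3 or 4 or control-macrophage replicate 1, 2 or 4 (0.0655 to 0.0951). Its partner Nop56 measured 449.6, 249, 368 and 333 CPM in the cells alone, 285, 304 and 308 and 352 with control macrophages and 273 and 286 and 515, 472 and 433 with STZ macrophages, and the groups overlapped. Its log2 fold changes were -0.30 ± 0.19 and -0.20 ± 0.21 (edgeR adjusted p = 0.211 and 0.466). Fbl measured 23.7, 31.6, 11.5 and 3.86 CPM in the cells alone, 46.4, 44.8 and 24.3 and 3.73 with control macrophages and 40.04 and 47.1 and 54.9, 24.8 and 50.1 with STZ macrophages. Its spread within a group was wide, and 0.80 ± 0.65 and 1.98 ± 0.83 were not called (edgeR adjusted p = 0.336 and 0.0712). The difference between Nop58 and its partners was not tested.

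Box H/ACA particles, which convert uridine to pseudouridine, hold the enzyme dyskerin (Dkc1) with Nhp2 and Gar1. Nhp2 was 42.2, 41.8, 49.9 and 36.6 CPM in the cells alone, 129.6, 134 and 135 and 97.9 with control macrophages (day 1, then day 2) and 112 and 114 and 204, 205 and 202 with STZ macrophages. No co-culture overlapped the cells alone. Nhp2 rose by 1.48 ± 0.22 and 1.70 ± 0.26, or 2.78-fold and 3.25-fold (edgeR adjusted p = 0.000188 and 0.000192). Dkc1 was 134, 87.9, 209 and 207 CPM in the cells alone, 295, 252 and 344 and 779 with control macrophages and 199 and 194 and 472, 467 and 404 with STZ macrophages. Its control-macrophage libraries lay above all cells alone, with day 2 the highest of all 13, while the STZ-macrophage libraries of day 1 lay among the cells alone. Dkc1 rose by 0.93 ± 0.25 with control macrophages, and 0.26 ± 0.27 with STZ macrophages was not called (edgeR adjusted p = 0.00905 and 0.465). Gar1 was low, at 0.368 to 32.7 CPM over the 13 libraries, and was not called.

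Of the 8 genes of the small subunit processome, the particle that folds and cuts the 40S part of the precursor, none was called with control macrophages and Noc4l alone rose with STZ macrophages. By unadjusted p below 0.05 the counts were 2 and 3 of 8, beside 8305 and 8072 of all 15781 genes. Noc4l, which acts with Nop14, measured 38.6, 37.1, 7.34 and 4.42 CPM in the cells alone, 31.3, 73.1 and 9.53 and 8.42 with control macrophages (day 1, then day 2) and 101 and 107 and 41.4, 13.8 and 24.7 with STZ macrophages. The STZ-macrophage libraries of day 1 were the highest and those of day 2 overlapped the cells alone. The log2 fold change was 0.77 ± 0.72 and 2.30 ± 0.80 (edgeR adjusted p = 0.406 and 0.0331). The second value stayed called in 10 of 19 alternatives, and it was not called without cells-alone replicate 4 (edgeR adjusted p = 0.0543), without STZ-macrophage replicate 1 (0.0699) or without STZ-macrophage replicate 5 (0.0834).

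Utp4, a WD-repeat protein of the early UtpA complex, measured 120.5, 85.2, 149 and 143 CPM in the cells alone, 175, 126 and 163 and 294 with control macrophages and 120.1 and 119 and 272, 288 and 259 with STZ macrophages. Heatr1, of the same complex, measured 169, 105, 79.7 and 139 CPM in the cells alone, 172, 154 and 183 and 123 with control macrophages and 126 and 117 and 288, 208 and 220.4 with STZ macrophages. Rrp9, which binds the U3 snoRNA, measured 56.9, 53.6, 11.4 and 5.09 CPM in the cells alone, 27, 43.6 and 8.61 and 2.13 with control macrophages and 40.3 and 40.9 and 42.3, 13.3 and 29.2 with STZ macrophages. All 3 genes overlapped between the groups, and Rrp9 had a within-group SD of 1.48 on the log2 scale. With control and STZ macrophages, Utp4 had 0.27 ± 0.19 and 0.00 ± 0.21, Heatr1 0.28 ± 0.29 and 0.30 ± 0.34, and Rrp9 -0.57 ± 0.79 and 0.99 ± 1.01, none called. Utp20, Wdr43, Wdr75 and Nop14 were not called either, with log2 fold changes from -0.53 to 0.86 with control and from -0.55 to 1.33 with STZ macrophages.

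Of the 4 late 40S factors, Bysl, Ltv1 and Tsr1 rose in both co-cultures, and Rrp12 had positive log2 fold changes that were not called. Ltv1, an export and maturation factor of the pre-40S particle, measured 44.8, 40.1, 49.5 and 42 CPM in the cells alone, 90.2, 82 and 83.5 and 98 with control macrophages (day 1, then day 2) and 64.1 and 64.4 and 140.04, 126 and 127 with STZ macrophages. Tsr1, a GTPase-like protein on the same particle, measured 88, 45.1, 63.3 and 72.2 CPM in the cells alone, 139.6, 109 and 122 and 192 with control macrophages and 111 and 109.8 and 239.8, 203 and 177 with STZ macrophages. For both genes every co-culture lay above every library of cells alone. Ltv1 rose by 0.84 ± 0.18 and 0.73 ± 0.21 (edgeR adjusted p = 0.00243 and 0.0119). Tsr1 rose by 0.84 ± 0.21 and 0.78 ± 0.23 (edgeR adjusted p = 0.00553 and 0.0147). With STZ macrophages both calls were lost with a replicate block (edgeR adjusted p = 0.0967 for Ltv1). That of Tsr1 was also lost with the 2 groups alone. The library kit does not keep the strand, and 32.3% of the exonic bases of Tsr1 lie under the antisense gene Srr, so reads of the pair cannot be told apart there.

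Bysl, which encodes the pre-40S binding protein bystin, measured 20.2, 31.3, 19.4 and 11.5 CPM in the cells alone, 69.3, 59.9 and 54.1 and 17.3 with control macrophages and 47.2 and 52.4 and 112, 90.4 and 88.9 with STZ macrophages. Only control-macrophage replicate 3 lay among the cells alone. Bysl rose by 1.28 ± 0.44 and 1.86 ± 0.54 (edgeR adjusted p = 0.0311 and 0.0144), and with a replicate block the adjusted p was 0.0545 with control macrophages, which is not called. Bysl was also not called there without cells-alone replicate 1, 3 or 4 or control-macrophage replicate 1, 2 or 4 (edgeR adjusted p = 0.0529 to 0.0905). With STZ macrophages the Bysl call was lost with a replicate block and in the deposited adjusted log2 values. Of the exonic bases of Bysl 9.37% lie under the antisense gene Ccnd3. Rrp12 measured 60.2, 26, 11.7 and 8.17 CPM in the cells alone, 68.8, 66.6 and 54.2 and 15.1 with control macrophages and 59.5 and 65.8 and 138, 93.4 and 98 with STZ macrophages. The groups overlapped, and 0.96 ± 0.60 and 1.85 ± 0.75 were not called (edgeR adjusted p = 0.214 and 0.0645).

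The 60S assembly genes moved in both directions. Ebna1bp2, Mrto4, Nop16 and Grwd1 rose with control macrophages and Ebna1bp2, Mrto4 and Rrp1b with STZ macrophages, while Wdr12 and Noc2l fell in both. Mrto4, a stalk-related protein of early 60S particles, measured 20.02, 17, 23.6 and 21.6 CPM in the cells alone, 33.4, 46.5 and 45.7 and 101 with control macrophages (day 1, then day 2) and 39.7 and 44.6 and 77.9, 84.2 and 79.2 with STZ macrophages. Ebna1bp2, also an early 60S factor, measured 151, 112, 145 and 124 CPM in the cells alone, 241, 203 and 251 and 269 with control macrophages and 203 and 213 and 373, 357 and 343 with STZ macrophages. Neither gene overlapped between co-cultures and cells alone. Mrto4 rose by 1.08 ± 0.19 and 0.96 ± 0.20 (edgeR adjusted p = 0.000588 and 0.00212), and with GC correction the second value was 0.56 and not called (edgeR adjusted p = 0.13). Ebna1bp2 rose by 0.72 ± 0.16 and 0.78 ± 0.18 (edgeR adjusted p = 0.00343 and 0.00443). Its second value was not called with a replicate block (edgeR adjusted p = 0.087). Grwd1, a histone-binding factor of 60S assembly, was not called with control macrophages under a replicate block (edgeR adjusted p = 0.0741) or without control-macrophage replicate 1, 2 or 4 (0.0502 to 0.0624). Grwd1 also lost its call with library totals. Nop16 was not called without cells-alone replicate 1 or control-macrophage replicate 2 or 4 (edgeR adjusted p = 0.0513 to 0.106). The Nop16 call was also lost with library totals, with the 2 groups alone and in day 1 libraries (edgeR adjusted p up to 0.186).

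Wdr12 forms the PeBoW complex with Pes1 and Bop1, which is needed to process the 60S part of the precursor, and Noc2l acts in nuclear 60S transport. Wdr12 measured 145, 96.4, 234 and 241 CPM in the cells alone, 84.4, 94.2 and 96 and 170.03 with control macrophages and 59.7 and 60.6 and 119, 129 and 110.4 with STZ macrophages. Noc2l measured 27.7, 55.6, 43.3 and 46.2 CPM in the cells alone, 14.8, 14.4 and 17.7 and 29.3 with control macrophages and 12.9 and 13.5 and 19.3, 29 and 22.3 with STZ macrophages. Day 1 co-cultures lay below all cells alone for both genes, and some day 2 co-cultures reached into their range. Wdr12 fell, with log2 fold changes of -0.98 ± 0.25 and -1.55 ± 0.29 (edgeR adjusted p = 0.00735 and 0.000819). With control macrophages it was not called lower without the day term, with the 2 groups alone or in day 1 libraries. With STZ macrophages its call was lost with a replicate block. In the deposited adjusted log2 values Wdr12 was called lower in neither comparison. Noc2l fell as well, with -1.45 ± 0.25 and -1.73 ± 0.28 (edgeR adjusted p = 0.00053 and 0.000314). Both Noc2l calls held in every alternative but the adjusted log2 values (limma adjusted p = 0.574 and 0.302). Of the exonic bases of Noc2l 20.9% lie under the antisense gene Samd11. The partners of Wdr12 were not called, with 0.36 ± 0.26 and -0.12 ± 0.29 for Pes1 and -0.20 ± 0.98 and 1.52 ± 1.23 for Bop1.

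Brix1, an early 60S assembly factor, measured 93.7, 92, 167 and 164 CPM in the cells alone, 183, 178 and 205 and 283 with control macrophages and 143 and 147 and 266, 288 and 258 with STZ macrophages. Nop2, a methyltransferase of the 60S ribosomal RNA, measured 114, 73, 119.7 and 118 CPM in the cells alone, 162, 130.2 and 165 and 285 with control macrophages and 120.01 and 125 and 333, 295 and 285 with STZ macrophages. Rrp1b measured 27.2, 27.5, 9.91 and 6.79 CPM in the cells alone, 32.3, 43.5 and 22.4 and 20.2 with control macrophages and 62.9 and 60.05 and 49.6, 35.2 and 39.1 with STZ macrophages. Nop2 did not overlap between co-cultures and cells alone, yet its 0.46 ± 0.19 and 0.30 ± 0.21 were not called (edgeR adjusted p = 0.0598 and 0.259). With control macrophages Nop2 was not called without the day term in the model either. Brix1 was not called either, with 0.50 ± 0.21 and 0.24 ± 0.24. Rrp1b had 0.86 ± 0.42 with control macrophages, not called, and rose by 1.82 ± 0.46 with STZ macrophages (edgeR adjusted p = 0.111 and 0.00639). The remaining 60S genes Rrs1 and Nip7 were called in neither comparison, with log2 fold changes between -0.52 and 0.07.

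**Figure D4:**
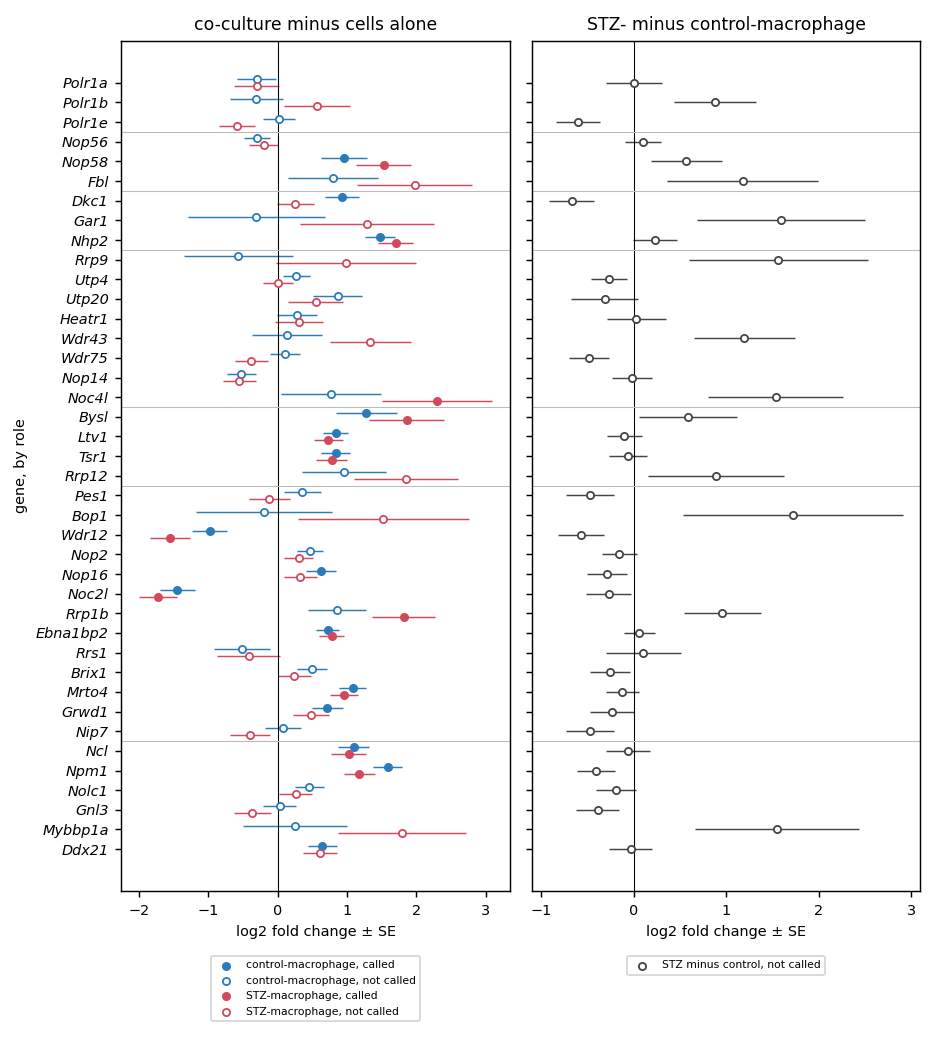
Log2 fold changes with SE of the 40 genes (rows, by role), left for the control-macrophage (blue) and STZ-macrophage (red) co-cultures against cells alone, right for STZ against control macrophages; filled points were called by edgeR at an adjusted p below 0.05. Filled points are 15 blue and 13 red on the left, and there are none on the right.

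By whether the groups overlap in CPM, 14 of 40 genes (35%) lay wholly higher with control macrophages than in the cells alone, beside 22.2% of all tested genes, and 12 (30%) with STZ macrophages, beside 21.7%. No member lay wholly lower in either comparison, beside 17.7% and 17.9%. Per kilobase of the longest annotated transcript, mean levels over the co-cultures were highest for Npm1 (343 CPM), Ncl (217 CPM), Nhp2 (142 CPM) and Dkc1 (135 CPM) and lowest for Rrs1 (1.58 CPM). On the same scale the cells alone had 86.3 CPM for Npm1, 78.0 for Ncl, 40.9 for Nhp2, 56.9 for Dkc1 and 96.4 for Nop56, so that Nop56 ranked above them there. These ranks depend on the length used, which was 8202 bases for Ncl, 3627 for Nop56 and 1633 for Npm1. The longest annotated transcript need not be the one expressed. Before division by length the cells alone had a mean of 640 CPM for Ncl and 350 for Nop56.

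RefSeq promoter windows on GRCm38.p6, 250 bases before to 50 after a gene's start, were matched for 35 of the 40 genes. The E-box CACGTG, which reads the same on both strands, occurred in 9 of the 35 (25.7%): Grwd1, Ltv1, Mybbp1a, Nop2, Pes1, Tsr1, Utp20, Utp4 and Wdr43. It occurred in 11.7% of the tested genes that have a window. The windows of 4 of these genes are shown, for genes that were called higher in co-culture or between batch days, with the E-box in capitals. Ltv1 lies at chr10:13193088-13193387 on the minus strand, Tsr1 at chr11:74897830-74898129 on the plus strand, Grwd1 at chr7:45830740-45831039 on the minus strand and Nop2 at chr6:125131633-125131932 on the plus strand.
Ltv1: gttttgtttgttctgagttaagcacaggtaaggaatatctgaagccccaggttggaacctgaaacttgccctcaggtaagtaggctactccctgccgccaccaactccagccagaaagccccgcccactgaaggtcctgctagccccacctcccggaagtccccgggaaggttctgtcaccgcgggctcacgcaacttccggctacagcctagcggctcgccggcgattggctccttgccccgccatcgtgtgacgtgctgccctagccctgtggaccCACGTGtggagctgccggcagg
Tsr1: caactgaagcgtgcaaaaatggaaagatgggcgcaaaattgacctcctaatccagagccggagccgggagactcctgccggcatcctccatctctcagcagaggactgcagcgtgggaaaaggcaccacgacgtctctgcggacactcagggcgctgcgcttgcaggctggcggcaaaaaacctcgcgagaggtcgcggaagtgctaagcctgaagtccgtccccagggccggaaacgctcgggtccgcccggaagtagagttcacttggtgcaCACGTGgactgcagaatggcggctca
Grwd1: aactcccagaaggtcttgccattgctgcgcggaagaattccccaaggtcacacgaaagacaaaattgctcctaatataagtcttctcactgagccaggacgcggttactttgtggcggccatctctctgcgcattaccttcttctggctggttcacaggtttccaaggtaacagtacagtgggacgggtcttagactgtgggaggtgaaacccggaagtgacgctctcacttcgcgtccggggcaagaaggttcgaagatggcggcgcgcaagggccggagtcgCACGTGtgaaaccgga
Nop2: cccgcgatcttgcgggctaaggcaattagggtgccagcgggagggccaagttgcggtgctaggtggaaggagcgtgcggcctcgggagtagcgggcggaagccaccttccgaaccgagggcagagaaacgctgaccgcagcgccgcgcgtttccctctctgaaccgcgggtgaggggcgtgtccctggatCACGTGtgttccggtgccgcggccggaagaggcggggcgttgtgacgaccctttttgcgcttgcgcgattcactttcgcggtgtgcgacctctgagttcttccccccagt
The E-box starts 28, 24 and 34 bases after the start in Ltv1, Tsr1 and Grwd1, and at position -60 in Nop2. A match is a description of the letters only. The windows of Ncl, Nhp2, Mrto4 and Ebna1bp2 hold no such match.

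Between STZ-macrophage and control-macrophage co-cultures no ribosome biogenesis gene was called in the fit of all 13 libraries. The count from edgeR was 0 of 40, beside 0.152% of all genes higher and 0.171% lower (0.323% in either direction). By unadjusted p below 0.05 there were 6 (2 higher and 4 lower), beside 3604 of all 15781 genes. DESeq2 called 0, beside 4.53% of all genes, and limma on the deposited adjusted log2 values called 0, beside 0.719%. When the 9 co-cultures alone were fitted, edgeR called Gar1, Wdr43 and Rrp1b higher and Dkc1 and Wdr12 lower (12.5% of the 40), beside 18.1% of all genes in that fit. The median log2 fold change was -0.05, against -0.13 over all genes. SEs of single genes ran from 0.17 to 1.19 with a median of 0.24, so that smaller differences could not be seen for the more variable genes. Dkc1 had the smallest adjusted p (-0.67 ± 0.24, edgeR adjusted p = 0.166), followed by Polr1e at -0.61 ± 0.23 and Rrp1b at 0.96 ± 0.42 (edgeR adjusted p = 0.179 and 0.205). Their libraries overlapped between the co-cultures. Ncl and Npm1 differed by -0.07 ± 0.24 and -0.41 ± 0.20. Gar1 was the gene whose groups did not overlap (1 of 40, or 2.5%, beside 2.46% of all genes; 0 lay wholly lower, beside 5.08%), at 5.03, 3.71 and 3.79 and 4.47 CPM with control and 32.7 and 10.7 and 6.44, 6.75 and 5.33 CPM with STZ macrophages.

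Batch day went with many of these genes. Over the co-cultures, with the group in the model, 12 of 40 were called higher on day 2 and 0 lower, beside 2.1% and 1.05% of all genes (3.15% in either direction). By unadjusted p below 0.05, 24 were higher and 1 lower, beside 4554 of all 15781 genes in either direction. The 12 were Polr1e, Dkc1, Utp4, Wdr75, Pes1, Nop2, Nop16, Mrto4, Grwd1, Npm1, Nolc1 and Gnl3. The median log2 difference of all 40 was 0.77, against 0.13 over all genes. Nop2 (1.16 ± 0.19), Npm1 (1.18 ± 0.20), Mrto4 (1.07 ± 0.18), Utp4 (1.09 ± 0.19), Wdr75 (1.20 ± 0.22) and Nolc1 (1.14 ± 0.21) had the smallest p, with edgeR adjusted p from 0.0257 to 0.032. Wdr75, a WD-repeat protein of the processome, measured 115, 103 and 136 CPM (day 1) and 261 CPM (day 2) with control and 83.7 and 81 and 198, 200.04 and 184 CPM with STZ macrophages, and the days did not overlap. In CPM, 21 of 40 genes (52.5%) lay wholly higher on day 2 over the co-cultures, beside 7.72% of all genes, and 0 wholly lower, beside 2.66%. Within the STZ-macrophage co-culture 32 (80%) lay wholly higher on day 2, beside 35.4%, and 5 (12.5%) lay wholly lower, beside 26.1% (Gar1, Wdr43, Noc4l, Bop1 and Rrp1b).

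These day calls rest on few libraries. Leaving out control-macrophage replicate 1 or 2, or any of the 5 STZ-macrophage libraries, left 0 of 40 called higher, and leaving out control-macrophage replicate 3 or 4 left 3 or 5. Over all genes the count higher went from 332 to 3 to 5 in the first 7 of these fits and to 28 and 49 in the other two. Day 2 holds a single control-macrophage library. The day 2 libraries also differ from the day 1 libraries of their group in a GC slope. This is the slope of log2 CPM, minus each gene's group mean, over GC content. It was fitted across 7983 genes with a mean log2 CPM above 3. Being relative to the group, it cannot be compared between groups. The slope was -0.59 per 10% GC in control-macrophage replicate 3. In the STZ-macrophage libraries it was -0.05 to -0.25 on day 2, against 0.20 and 0.21 on day 1. The control-macrophage libraries of day 1 had 0.25, 0.36 and -0.016. GC correction instead removed a smooth trend over GC content of each library's deviation from the mean of all 13 libraries. With it edgeR called 12 higher, beside 1.58% of all genes. Of these, 11 were among the 12 above, and Pes1 was lost. The members' median was then 0.57. Summed CD8 T cell and NK cell markers were 399 to 813 CPM in the 4 libraries of day 2 and 134 to 269 CPM in the 5 co-cultures of day 1, and both libraries with high endocrine sums are of day 2. Summed macrophage markers were 502 to 693 CPM on day 2 and 447 to 497 CPM in the co-cultures of day 1, and all 16 macrophage markers tested had a positive day difference (median log2 difference 1.99, Msr1 and Lyz2 called). Their part in the result was not tested.

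The difference between STZ and control macrophages was also fitted within each day. Within day 1 edgeR called 0 of 40 genes between the co-cultures, beside 0.215% of all genes. At an unadjusted p below 0.05 there were 3 of the 40, beside 2573 of all 15781 genes. Within day 2 the comparison rests on the single control-macrophage library. The median log2 difference of the 40 genes was 0.42 there, against -0.16 over all genes. The test of the difference between days, which rests on the same library, called 0 of 40 (0.00634% of all genes). Its median was 0.50 over the 40 genes, against 0.01 over all genes. DESeq2 called 4 higher, Polr1b, Nop58, Nhp2 and Bysl, beside 2.75% of all genes higher and 0.768% lower by DESeq2. Bysl had 2.78 ± 0.60, Nhp2 1.29 ± 0.30 and Nop58 1.97 ± 0.48, none called (edgeR adjusted p = 0.248, 0.248 and 0.264). In those genes the single control-macrophage library of day 2 was the lowest of its group and the STZ-macrophage libraries of day 2 were the highest of theirs. For the cells alone only day 1 exists. In a fit of day 1 libraries alone, 12 genes rose and 1 fell with control macrophages, beside 18.4% and 14.7% of all genes, and 10 rose and 2 fell with STZ macrophages, beside 17.3% and 10.8%.

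Spread within groups was uneven among the 40 genes. Their median within-group SD of log2 CPM was 0.56, against 0.63 over all tested genes, and 6 genes exceeded 1, namely Bop1, Rrp9, Gar1, Noc4l, Mybbp1a and Fbl. Bop1, the partner of Wdr12 in PeBoW, measured 161, 87.9, 16.1 and 2.05 CPM in the cells alone. With control macrophages Bop1 measured 67.5, 124 and 21.2 (day 1) and 5.43 (day 2), and with STZ macrophages 126 and 132 and 109.9, 22.3 and 62.8. Replicates of 1 group thus covered the whole range. The 6 genes had a median GC content of 56.2%, against 48.4% in the other 34. Over the 40 genes, SD and GC content had a Pearson r of 0.51, given as a description, since the genes share the same libraries. Within a library, the members' deviations from the group mean went with GC content with r from -0.53 to 0.56. The sign followed that of the library's GC slope over 7983 genes, which is also relative to the group.

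The rest of the pathway held calls in both directions. Of 110 further ribosome biogenesis genes listed, 109 were tested. With control macrophages 16 were higher and 9 lower (22.9% in either direction), beside 23.1% and 22% of all genes (45%). With STZ macrophages 12 were higher and 22 lower (31.2%), beside 20.8% and 22.3% of all genes (43.1%). The share called was thus below that of all genes in both comparisons. The lists that follow are parts of these 109 and stand beside the same shares. Among the RNA polymerase I machinery, Polr1c, a subunit shared with RNA polymerase III, rose with control macrophages (0.85 ± 0.26, edgeR adjusted p = 0.0167), and the promoter selectivity factor subunits Taf1a and Taf1d fell (-1.67 and -0.87). With STZ macrophages 5 of the 12 fell and 0 rose, Taf1a (-2.24), Taf1d (-1.43), Taf1b (-0.88), Znrd1 (-1.14) and Ttf1 (-1.48). Of the 14 snoRNP and modification factors, 5 rose with control macrophages, including Ruvbl2 (1.14) and Znhit3 (0.81), and 0 fell. With STZ macrophages 1 rose and 2 fell, the H/ACA core protein Nop10 (-0.70) and the methyltransferase Emg1 (-0.99). Of the 37 other small subunit genes tested, 3 rose and 2 fell with control macrophages, with Nol10 at 1.54 and the 40S nuclease Nob1 at -0.69, and 5 rose and 6 fell with STZ macrophages. Of the 46 other 60S factors 6 rose and 5 fell with control and 6 rose and 9 fell with STZ macrophages. Urb2 and Rpf2 rose by 1.80 and 1.41 with control macrophages, and Mdn1, the AAA-type ATPase of 60S maturation, fell with -1.91. Between the co-cultures 0 of the 109 were called by edgeR, beside 0.323% of all genes. At an unadjusted p below 0.05 there were 38, beside 3604 of all 15781 genes. On day 2 against day 1, 24 of the 109 were called higher and 0 lower, beside 2.1% and 1.05% of all genes.

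Of 10 snoRNA host genes, 1 rose and 2 fell with control macrophages, and 1 rose and 5 fell with STZ macrophages. These are 30% and 60% in either direction, beside 45% and 43.1% of all genes. Gas5, a host of many box C/D snoRNAs, measured 206, 152, 288 and 276 CPM in the cells alone, 121, 156 and 209 and 283 with control macrophages and 108 and 122 and 167, 227 and 208 with STZ macrophages. It fell with STZ macrophages (-1.003 ± 0.26, edgeR adjusted p = 0.00716), and -0.51 ± 0.23 with control macrophages was not called. Snhg15 fell in both, with -1.17 and -1.39.

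Regulators of the pathway were called in both directions. Of the 11 tested, Mxd3 and Max rose and Mxi1, Rptor and Mga fell with control macrophages (45.5%, beside 45% of all genes). With STZ macrophages Mxd1, Mxd3, Myc and Max rose and Mga fell (45.5%, beside 43.1%). Mxd3 had the smallest p of them with control macrophages (10.8 ± 0.71, edgeR adjusted p = 2.92e-07). A value this large depends on the level in the cells alone, and few counts there would make its size imprecise. Myc measured 86.1, 89, 18.7 and 6 CPM in the cells alone, 45.5, 97.4 and 19.5 (day 1) and 7.56 (day 2) with control macrophages and 304 and 318 (day 1) and 78.5, 28.3 and 54.6 (day 2) with STZ macrophages. The 2 STZ-macrophage libraries of day 1 were the highest, and the other libraries overlapped across the groups. Myc rose with STZ macrophages (2.71 ± 0.80, edgeR adjusted p = 0.0159) and was not called with control macrophages (0.07 ± 0.72) or between the co-cultures (2.64 ± 0.76, edgeR adjusted p = 0.144). The STZ-macrophage libraries of day 2, where the ribosome biogenesis genes took the highest share of counts, were not those where Myc was highest. They differ from the STZ-macrophage libraries of day 1, where Myc was highest, in batch day and GC slope as well. Whether Myc has a part in the levels of the ribosome biogenesis genes was not tested. Within the cells alone Myc was high in the 2 libraries with GC slopes of 0.35 and 0.36 and low in those with -0.23 and -0.48, and the part of GC content in its values was not tested. Max rose in both co-cultures (2.34 ± 0.20 and 1.94 ± 0.21, edgeR adjusted p = 2.01e-06 and 1.56e-05). Mxi1, a MAX partner that opposes MYC, measured 7.15, 12.9, 11.8 and 19.5 CPM in the cells alone, 3, 3.04 and 3.86 and 2.65 with control macrophages and 12.9 and 14.9 and 7.96, 5.84 and 8.48 with STZ macrophages. Mxi1 fell with control macrophages (-1.86) and was higher with STZ than with control macrophages (1.84 ± 0.33, edgeR adjusted p = 0.0437), with no overlap. The latter call was lost with a replicate block (edgeR adjusted p = 0.554), in day 1 libraries (0.168) and without any single co-culture library other than control-macrophage replicate 3 (0.0731 to 0.2001). All 7 proliferation markers rose in both co-cultures, and their summed level was 162 to 209 CPM in the cells alone, 4758 to 6135 CPM with control macrophages and 3633 to 5704 CPM with STZ macrophages. Pcna, the replication clamp, rose by 2.58 ± 0.18 and 2.24 ± 0.19 (edgeR adjusted p = 4.01e-07 and 2.15e-06).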

How the data were processed

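RNA was sequenced from 13 libraries of T cells. Per the labels' protocols, a kit that does not mark strand turned 10 ng of RNA (integrity above 8) into cDNA, and read pairs of 150 bases were aligned to GRCm38. DESeq2 appears, with no version, in the submitters' processing notes. Aligner and counter: not given in the sources used here. Per gene, the authors deposited estimated counts without normalization (11% of the values not whole, rounded here) and a second table of log2 values for 12236 genes whose adjustment is not described in the labels; it served as an alternative only.

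Tests on the rounded counts used edgeR 4.0.16 (R 4.3.3, filterByExpr, TMM, robust quasi-likelihood F tests, a term per group and for batch day, all 13 libraries, Benjamini-Hochberg over 15781 genes, called at 0.05). A standard error is the fitted log2 fold change divided by the root of F. limma 3.58.1 and DESeq2 1.42.0 served as alternatives. The scripts were tested on simulated data. Log2 CPM used a prior count of 2. Members, lists and tests were chosen with earlier results of these data known.

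Values in every library are given for the 2 most abundant genes of each role, the 4 largest and 3 smallest log2 fold changes of each co-culture against cells alone, and, in the other comparisons, the called genes (at most 6 by smallest p) or the 3 with the smallest p. Up to 3 genes of each other list are named per comparison, and further names were chosen after their values were seen. Gene positions are from GENCODE vM21.

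Replicate numbers are shared between groups. Same-numbered libraries without macrophages and with control macrophages deviated together (r = 0.32 to 0.61 in 4 of 4 pairs). Differently numbered ones reached r = 0.72, the best match carried the same number in only 2 of 4, and no label states a pairing. The main fit has no replicate term, so a pairing was set only in the replicate block, an alternative. For STZ-macrophage libraries r fell to -0.61. The replicate block nevertheless sets a term per replicate number over all 13 libraries, these included. Its results for STZ macrophages and batch day thus rest on a pairing by number that the labels do not state.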

Additional observations from a re-analysis of the deposited data

Results flagged for a closer look

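Among the named genes, 3 values in 2 libraries stood far from the other libraries of their group, out of 78 groups tested; chance alone marks about 1 in 20 groups, so these are no more than chance gives. Nhp2 was lowest in control-macrophage replicate 3, at 97.9 CPM, with the other 3 at 130 to 135 CPM. Wdr12 was highest in the same library, at 170 CPM, with the other 3 at 84.4 to 96.0 CPM; this is the control-macrophage library of batch day 2. Nop2 was lowest in cells-alone replicate 2, at 73.0 CPM, with the other 3 at 114 to 120 CPM.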

How the results depend on the processing

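Over 18 alternatives, Ebna1bp2, Ltv1, Mrto4, Ncl, Nhp2, Npm1 and Tsr1 stayed called higher with control macrophages, and over 19, Nhp2 and Npm1 with STZ macrophages. With control macrophages, the count of genes higher and lower (13 and 2) became 8 and 4 with library totals only (median 0.16). All genes stood at 18.5% and 29.4% there. In the deposited adjusted log2 table it became 21 and 7 (median 0.79), beside 33.7% and 37% of all genes. There was 1 lower without the day term, with the 2 groups alone or in day 1 libraries, beside 21.1%, 16.4% and 14.7%. In each of these Noc2l stayed called and Wdr12 did not. With STZ macrophages (11 and 2), library totals gave 4 lower, beside 24.7% of all genes, and DESeq2 17 higher, beside 26.8%. Without the day term 19 were higher (median 1.09), beside 23.7%. The adjusted log2 values gave 21 higher and 0 lower, beside 29.4% and 26.7%. Library totals moved the median of all genes by -0.32 with control and RLE scaling by 0.15 with STZ macrophages; relative to it the members' median stayed at 0.58 to 0.61 under these scalings. Between the co-cultures their median changed sign with scaling, from -0.05 to 0.15.

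Fitting the 9 co-cultures alone called 3 genes higher and 2 lower between them, beside 10.1% and 8.06% of all genes. For batch day, 7 genes were higher with RLE scaling, beside 0.412% of all genes. Without the filter 4 were higher, beside 0.175%, and in the STZ-macrophage co-culture only 5, beside 0.203%. DESeq2 gave 22 higher and 1 lower, beside 7.9% and 12.4% of all genes. Fitting the co-cultures alone gave 18 higher and 2 lower, beside 13.3% and 16.3%. The adjusted table gave 0 higher (median 0.024). DESeq2 called 4 for the day difference of the STZ effect. In the adjusted table signs turned with control macrophages for Nop58 (-0.67), Bysl (-0.24) and Wdr12 (0.074), with STZ macrophages for Noc4l (-0.45), and between days for Polr1e (-0.024), Dkc1 (-0.12), Utp4 (-0.014), Wdr75 (-0.049), Pes1 (-0.033), Nop16 (-0.040), Mrto4 (-0.13), Npm1 (-0.060) and Gnl3 (-0.083). That table called 0 of all its genes between days, with a median of -0.057 over them, so its signs between days say nothing about these genes. The cause was not tested.

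With the replicate block, 10 genes were higher and 2 lower with control macrophages, beside 20.9% and 16.4% of all genes. With STZ macrophages the block gave 4 and 1, beside 12.3% and 9.75%. It gave 0 between co-cultures and 0 between days, beside 0% and 0.0127% of all genes. Ddx21 (adjusted p = 0.0840 by edgeR) and Grwd1 (0.0741) also lost their call with control macrophages. Leaving out 1 library gave 8 to 15 genes higher and 2 to 4 lower with control macrophages. All genes stood at 19.6 to 24% and 15.2 to 23.7% in these fits. There were 8 higher without control-macrophage replicate 4 and 4 lower without cells-alone replicate 2. With STZ macrophages the counts were 10 to 15 and 2 to 3, beside 16.3 to 28.8% and 16.6 to 24.4% of all genes. They were 0 in either direction between co-cultures, beside 0 to 0.53%, and 0 to 5 higher between days, beside 0.0192 to 0.297%.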
